A study of Saccharomyces cerevisiae with 10 samples.

Results

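The GID complex is a ubiquitin ligase of budding yeast (Saccharomyces cerevisiae). This account covers 10 deletion strains, those of its 8 genes and of its targets FBP1 and PCK1, out of 5325 strains measured in a benomyl dose series. The strains were found by gene symbol or synonym in the probe annotation, and all 10 were on the array with values at every dose. They were chosen by their log2 ratios over the 10 doses, so the levels and fitted changes of the 10 are descriptions, and no test is drawn from them.

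When starved yeast cells meet glucose again, they stop making glucose from smaller carbon sources. GID then attaches ubiquitin to the enzymes peculiar to gluconeogenesis, and the proteasome degrades them. Vid30 (Gid1), Gid8 and Vid28 (Gid5) hold the complex together, Rmd5 (Gid2) and Fyv10 (Gid9) form its catalytic RING pair, and Ubc8 (Gid3) is the conjugating enzyme that brings the ubiquitin. Vid24 (Gid4) is the receptor that binds substrates by an N-terminal proline, and Gid7 joins ligase units into a larger assembly. Fructose-1,6-bisphosphatase (Fbp1) and phosphoenolpyruvate carboxykinase (Pck1) are its best known targets.

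Per the labels, a pool of 5896 heterozygous diploid knockout strains was sporulated, and MATa haploids were selected at 30 °C on a medium on which only they grow, with or without benomyl, a drug that breaks down microtubules. Each strain's DNA tags were amplified from the pool and read on a 2-colour array, with the pool without drug in Cy5 and the pool with drug in Cy3. There was 1 array at each of 0, 1, 5, 10, 15, 20, 25, 30, 35 and 40 µg/ml, and on the array of 0 µg/ml both dyes held a pool without drug. Both pools of an array were selected for the same time, which was 2 days for the 4 lowest doses, 3 days for 15 µg/ml and 4 days for the higher ones, so dose and days cannot be told apart over the whole course. The labels do not say how many clones stand behind a strain or which arrays came from separate sporulations. Values are log2 ratios relative to the median strain of the array. Which dye is on top was not stated in the sources used. Read from the labelled dyes and the usual setting of the scanner program, Cy5 is the likely numerator, and a negative value then means relatively more of the strain in the drug pool. Every sign below would turn with the opposite numerator, and the ratio cannot tell in which of the pools a strain's share moved.

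The spread of all strains, as a standard deviation of log2 ratios, was 0.51 on the no-drug array and 1.46 on the array of the highest dose. At least 99.94% of ratios were whole hundredths on 9 arrays, while on the 10 µg/ml array 3.58% were, so the values of that array were deposited at another resolution. Spot intensities are not in the value table, so the signal behind each ratio is unknown, and precision is limited by having 10 arrays. No spot of the 10 strains reached the lowest ratio of 0.01, and the lowest of them was 0.02, in VID28.

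Of the 8 GID ligase strains, 6 lay far below the array median from 25 to 40 µg/ml, and most of these also did so at 5 and 10 µg/ml, with values within 2-fold of the median in between. The scaffold strains VID30, GID8 and VID28 had both dips. RMD5 and UBC8 had a shallow first dip and a deep second one. FYV10 had a still smaller first dip, which reached 2-fold in only 1 of its 2 spots. The strains without the receptor VID24 or without GID7 did not share the course, nor did those of the targets FBP1 and PCK1.

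Without VID30 (YGL227W), a scaffold subunit, the log2 ratio was -0.32 at 0 µg/ml, 0.11 at 1, -2.79 at 5, -2.16 at 10, -0.54 at 15, 0.24 at 20, -3.15 at 25, -3.27 at 30, -3.14 at 35 and -3.72 at 40 µg/ml. For GID8 (YMR135C), which links the scaffold to the RING pair, the values in the same order were -0.04, -0.26, -2.89, -1.94, -0.86, -0.25, -2.78, -3.36, -3.82 and -4.06. For VID28 (YIL017C), on which the substrate receptor docks, they were 0.05, 0.09, -3.50, -1.99, -0.21, 0.16, -3.28, -4.25, -4.93 and -4.40. All 3 scaffold strains were thus within 2-fold of the median on the arrays of 0, 1, 15 and 20 µg/ml and at least 2-fold below it on the other 6. Their lowest values correspond to ratios 13.2-fold, 16.7-fold and 30.5-fold below the median. At 5 µg/ml VID28 ranked 18 from the lowest among 5325 strains, GID8 ranked 71 and VID30 ranked 81. Pairwise correlations of their courses over the 10 arrays were 0.97 to 0.99, as a description, since all strains share the same arrays.

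The RING pair and the conjugating enzyme had a smaller first dip than the scaffold. RMD5 (YDR255C), the active RING subunit, was at 0.29, -0.04, -1.38, -1.25, -0.39, -0.43, -2.31, -2.91, -3.10 and -1.29 from 0 to 40 µg/ml. FYV10 (YIL097W), its RING-like partner, was at 0.19, -0.24, -0.84, -0.86, -0.47, -0.33, -2.38, -3.52, -3.75 and -3.05. UBC8 (YEL012W) was at -0.41, 0.23, -1.32, -1.45, -0.68, -0.90, -2.93, -3.52, -3.88 and -3.79. At 5 µg/ml these 3 lay between -1.38 and -0.84 and the scaffold strains between -3.50 and -2.79, with no overlap, and the ranges at 10 µg/ml, -1.45 to -0.86 and -2.16 to -1.94, did not overlap either. From 30 to 35 µg/ml FYV10 and UBC8 lay within the range of the scaffold strains. At 40 µg/ml RMD5 was the highest of the 6, and its rank from the lowest went from 140 at 35 µg/ml to 680 at 40 µg/ml. The difference between these 3 strains and the scaffold strains was not tested.

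The receptor strain VID24 (YBR105C) was at 0.04, 0.35, 0.06, -0.90, -0.41, 0.20, 0.27, 0.24, 0.12 and -1.36 from 0 to 40 µg/ml. Only the 40 µg/ml array was 2-fold below the median, and it stood apart from the other arrays of 4 days. GID7 (YCL039W) was at 0.75, -0.22, -0.54, -0.12, -0.12, -0.49, 0.28, -1.54, -0.37 and -0.79, and only the 30 µg/ml array was 2-fold below. From 25 to 35 µg/ml both strains lay above all 6 strains with the deep dip. At 40 µg/ml VID24 (-1.36) and RMD5 (-1.29) were at nearly the same level. Among the 8 ligase strains the order at 40 µg/ml from the lowest was VID28, GID8, UBC8, VID30, FYV10, VID24, RMD5 and GID7. With 1 array per dose, neighbours in this order cannot be separated.

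The strains without FBP1 or PCK1 stayed near the median, apart from PCK1 at 40 µg/ml. FBP1 (YLR377C) was at 0.02, -0.02, -0.41, -0.44, -0.22, 0.17, -0.42, 0.08, -0.22 and -0.09 from 0 to 40 µg/ml, and it was never 2-fold off. PCK1 (YKR097W) was at -0.15, 0.19, 0.06, -0.11, -0.14, 0.31, -0.42, 0.50, 0.49 and 1.11, so that only the array of 40 µg/ml was 2-fold above the median, where 19.3% of all strains were. Both lay above all 6 strains with the deep dip on every array from 25 to 40 µg/ml.

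**Figure D1:**
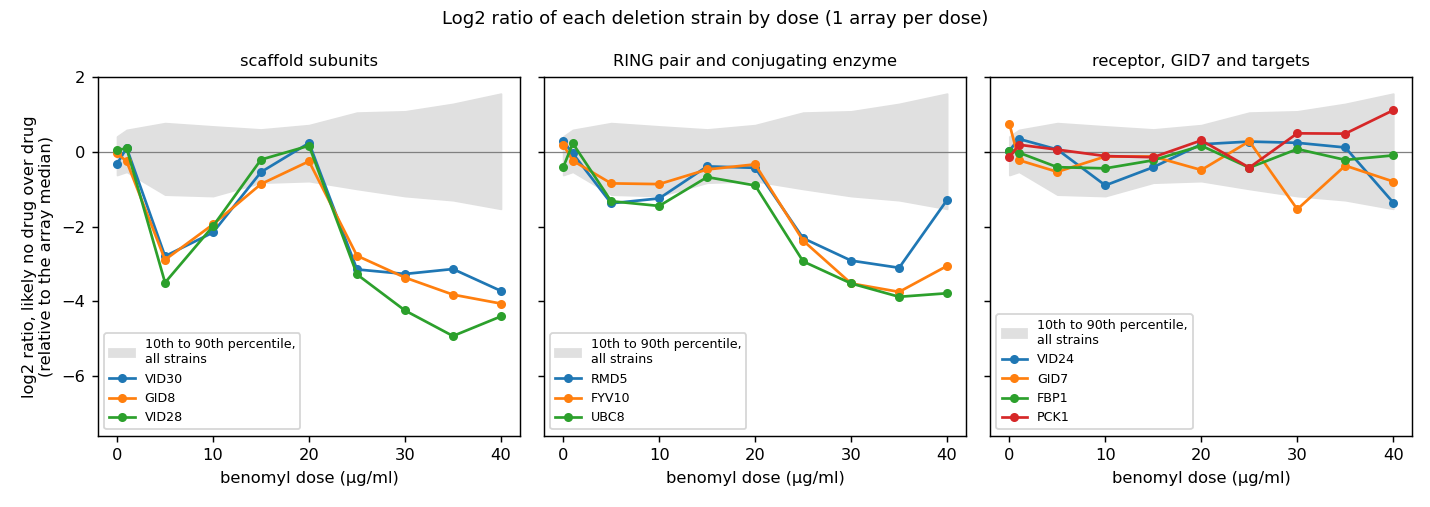
Log2 ratio relative to the array median (vertical axis) against benomyl dose in µg/ml (horizontal axis) for the 10 strains, 1 point per array, with the 10th to 90th percentile of all strains in grey. The scaffold strains dip at 5 and 10 µg/ml, return to between -0.86 and 0.24 at 15 and 20 µg/ml and lie between -4.93 and -2.78 from 25 to 40 µg/ml, while FBP1 stays between -0.44 and 0.17.

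Counts per array place these values against all strains. At 0 and 1 µg/ml none of the 8 ligase strains was at least 2-fold below the median, where 3.83% and 3.55% of all strains were. At 5 µg/ml 5 of 8 were, against 12.1% of all strains, and at 10 µg/ml 5 of 8, against 12.7%. At 15 and 20 µg/ml none was, against 7.46% and 7.1%. At 25 and 35 µg/ml 6 of 8 were, against 9.88% and 14.3%, and at 30 and 40 µg/ml 7 of 8, against 12.5% and 18.1%. The highest value of any of the 8 on any array was 0.75, for GID7 at 0 µg/ml. From 0 to 40 µg/ml the median of the 8 was 0.042, 0.026, -1.35, -1.35, -0.44, -0.29, -2.58, -3.32, -3.44 and -3.39. The median of all strains stayed between -0.0093 and 0.056.

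The dips were also counted over all strains. Being at least 2-fold below on both the 5 and 10 µg/ml arrays held for 5 of 8 ligase strains and for 7.08% of all strains. Being so on all 4 arrays from 25 to 40 µg/ml held for 6 of 8 and for 5.88% of all. Both dips together held for VID30, GID8, VID28, RMD5 and UBC8 and for 3.61% of all strains. Both, with values within 2-fold on the other 4 arrays, held for the same 5 and for 0.977% of all strains (52 of 5322). This pattern was defined after the courses were seen, and nothing is inferred from these shares. The 15 and 20 µg/ml arrays, on which the 6 strains lay within 2-fold of the median, were of 3 and 4 days. The 20 µg/ml array thus had the same days as the 4 arrays of the second dip.

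Each strain had 2 spots, 1 in each section of the layout, taken to carry different tags of the strain. They traced the same course in the 6 strains with the deep dip. Their correlation over the 10 arrays was 0.90 for VID30, 0.97 for GID8, 0.97 for VID28, 0.96 for RMD5, 0.98 for FYV10 and 0.93 for UBC8. Over 4139 strains with 1 spot in each section the median was 0.59, and 15.9% reached 0.9. Such a correlation also rises with the range of a course, and the 6 were chosen by their courses. No better agreement than in other strains is therefore read from it. The largest gap between the spots lay at 25 µg/ml or above in 5 of the 6, and at 5 µg/ml in FYV10, where it was 0.56. At 5 and 10 µg/ml FYV10 was at -0.56 and -0.63 in the first section and at -1.13 and -1.10 in the second. Only its second spot was thus at least 2-fold below the median on both. At 35 µg/ml VID28 was at -5.83 in the first section and -4.03 in the second, and VID30 at -2.03 and -4.25. At 30 µg/ml UBC8 was at -2.60 and -4.45.

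In the other 4 strains the spots matched less well, except in PCK1. For VID24 they correlated at 0.45, and the low value at 40 µg/ml came from the first section, at -2.28 against -0.43. For GID7 they correlated at 0.25, and the low value at 30 µg/ml was -2.68 in the first section and -0.39 in the second. So the single low values of VID24 and GID7 each rested mainly on 1 spot. The FBP1 spots correlated at -0.60 and differed by up to 1.64. This gap was at 30 µg/ml, with 0.90 in the first section and -0.75 in the second, so the mean of 0.08 there averages opposite spots. The PCK1 spots correlated at 0.89 and stood at 1.08 and 1.15 at 40 µg/ml, so both carried its highest value.

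**Figure D2:**
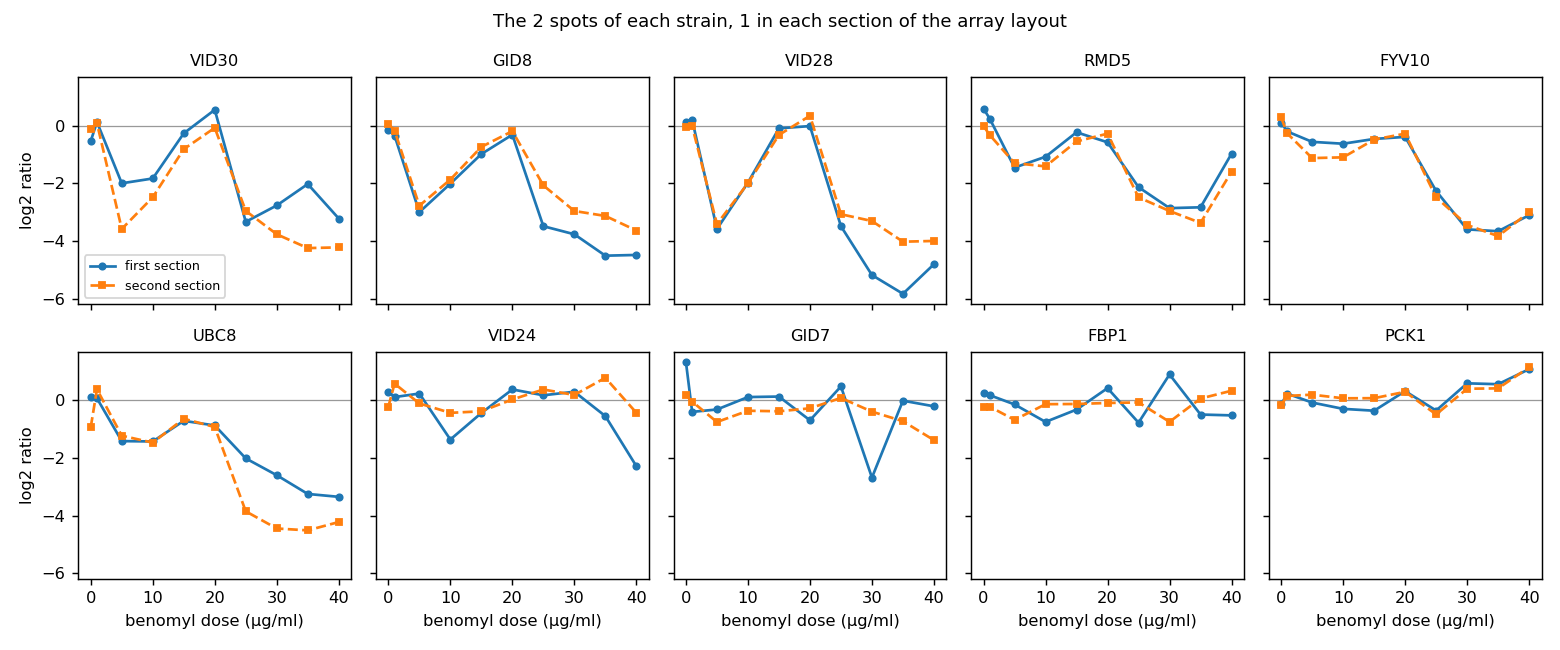
Log2 ratio relative to the array median (vertical axis) of the 2 spots of each strain against benomyl dose in µg/ml (horizontal axis), with the first section as circles and the second as squares. Both spots of VID28 lie at -3.58 and -3.42 at 5 µg/ml, whereas the low GID7 value at 30 µg/ml is present in the first section only.

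A straight line against dose was fitted to all strains with limma. Expressed as the log2 change over the whole dose range, the fits gave -4.22 ± 1.23 for VID28 (SE, n = 10 arrays), -3.89 ± 0.57 for UBC8, -3.71 ± 0.61 for FYV10, -3.33 ± 0.88 for GID8, -2.96 ± 0.99 for VID30 and -2.35 ± 0.73 for RMD5. UBC8 and FYV10, with a small first dip, had smaller errors than VID28 and VID30. Without the 5 µg/ml array the errors of VID28 and VID30 were 1.00 and 0.88, and without the 20 µg/ml array 1.01 and 0.77. The other 4 were at -0.93 ± 0.48 for GID7, -0.47 ± 0.50 for VID24, 0.05 ± 0.27 for FBP1 and 0.79 ± 0.35 for PCK1.

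At a limma adjusted p below 0.05 over all strains, 5 of 8 ligase strains were past the threshold in the lower direction, all of the 6 but VID30, against 9.13% of all strains. None was past it in the higher direction, against 10.3%. Neither target was, with PCK1 alone at an unadjusted p below 0.05, in the higher direction, where 1000 of 5325 strains were. The median change of the 8 was -3.14, beside 0.09 over all strains. Since the line uses the course by which the strains were chosen, nothing is read from these counts. Some of these calls also rested on single arrays, while FYV10 and UBC8 stayed past the threshold whichever 1 array was left out. GID8 was no longer past the threshold without the 0, 1, 35 or 40 µg/ml array, at -3.17 to -3.06, VID28 without the 0, 1, 25, 30, 35 or 40 µg/ml array, at -4.32 to -3.76, and RMD5 without the 0, 1, 15, 25, 30 or 35 µg/ml array, at -2.29 to -1.93. VID30 passed it once the 5 or the 20 µg/ml array was left out, at -3.63 and -3.06. With arrays scaled to equal spread no member passed, and the median of the 8 was -1.63.

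The second comparison set the 5 arrays of 4 days (20 to 40 µg/ml) against the 4 arrays of 2 days (0 to 10 µg/ml). UBC8 had a mean of -3.00 ± 1.23 (SD, n = 5) against -0.74 ± 0.79 (SD, n = 4), and FYV10 -2.61 ± 1.37 against -0.44 ± 0.51. VID28 was at -3.34 ± 2.05 against -1.34 ± 1.74, and each of its groups held both low values and values near the median. The differences of the 8 ligase strains lay between -2.26 for UBC8 and 0.01 for VID24. None of the 10 strains passed the limma threshold, where 0.263% of all strains were lower and 0.864% higher. Of the 8, 3 had an unadjusted p below 0.05 in the lower direction, namely FYV10, RMD5 and UBC8, against 453 of 5325 strains. Since the 8 were chosen by their courses, nothing is read from this count. Without the 20 µg/ml array VID28, FYV10 and UBC8 passed, at -2.88, -2.74 and -2.79, and 216 strains in all were lower in place of 14.

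Genes linked to GID by function were taken from 5 lists with 24 genes, all on the array, chosen with earlier results of these data known. Strains of GID-linked factors stayed closer to the median than the 6 with the deep dip from 30 µg/ml on. Of the alternative receptors GID10 and GID11, the GID-binding factor GID12 and the deubiquitinase UBP14 (Gid6), none of 4 passed over all strains in limma. Among all strains 9.13% were lower and 10.3% higher. Only UBP14 had an unadjusted p below 0.05, in the lower direction, where 775 of 5325 strains were. The fitted changes were 0.27 ± 0.29, 0.36 ± 0.25, -0.32 ± 0.28 and -1.29 ± 0.57. UBP14 was between -0.51 and 0.85 up to 25 µg/ml and at -0.65, -1.45 and -1.05 at 30, 35 and 40 µg/ml. With days as a term it passed, at -4.21 ± 1.02, and on the 4-day arrays alone it was at -4.72 without passing. Both are slopes scaled to 0 to 40 µg/ml and not observed changes.

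Among strains of gluconeogenic and glyoxylate enzymes 1 rose and several others lay above the median. PYC1, which carboxylates pyruvate to oxaloacetate, was at 0.02, -0.19, 2.62, 3.16, 4.13, 3.95, 3.69, 5.06, 4.97 and 4.77 from 0 to 40 µg/ml, and it rose by 4.64 ± 0.82 (SE, n = 10 arrays). It was high on every array from 5 µg/ml, including 15 and 20 µg/ml. Its call was lost with arrays scaled to equal spread (2.67), after quantile normalization (3.04) and with days as a term (4.38). It was also lost on the 4-day or 2-day arrays alone, where slopes scaled to 0 to 40 µg/ml were 2.33 and 14.2. These scaled values extrapolate and were not observed changes. PYC1 was the only one of 6 past the threshold, in the higher direction, where 10.3% of all strains were. None was lower, against 9.13%. MDH2, the cytosolic malate dehydrogenase and a further GID target, was at 1.86 on the 5 µg/ml array and 2.76 on the 40 µg/ml array, with a fitted change of 1.91 ± 0.64. ICL1, isocitrate lyase and also a GID target, was at 1.65 and 2.41 there, with 1.66 ± 0.54. At 10 and 15 µg/ml ICL1 was at -0.29 and 0.50, whereas MDH2 was at 2.50 and 2.28. The other 3, the paralog PYC2, acetyl-CoA synthetase (ACS1) and malate synthase (MLS1), ranged from 0.26 to 0.88, and none of them passed except PYC2 on log2(dose + 1), at 1.32. The list median was 1.27. With the 5 or the 10 µg/ml array left out, MDH2 passed, at 2.20 and 2.16. On uncentred values, in the first section and on log2(dose + 1) it passed too, at 2.15, 2.17 and 2.45. ICL1 passed with the 5 or the 30 µg/ml array left out, at 2.12 and 1.85, and on uncentred values, with the median of spots and in the first section, at 1.90, 1.74 and 1.87.

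Of 5 activators of gluconeogenic genes, ADR1 rose, by 1.14 ± 0.35, and the other 4 (CAT8, SIP4, RDS2 and ERT1) did not pass, with fits from -0.59 to 0.45. Of 3 enzymes that make or break down fructose-2,6-bisphosphate, the inhibitor of Fbp1, the kinase PFK26 rose, by 1.28 ± 0.41, while the kinase PFK27 and the phosphatase FBP26 did not pass, with fits from -0.021 to 0.73. Both calls hung on most single arrays. ADR1 did not pass once the 0, 5, 10, 15, 20, 30, 35 or 40 µg/ml array was left out, at 0.89 to 1.23. PFK26 did not pass once the 0, 1, 5, 15, 25, 30, 35 or 40 µg/ml array was left out, at 0.89 to 1.48. Neither passed with equal spread, after quantile normalization, on log2(dose + 1), with days as a term, in the second section or on the 4-day or 2-day arrays alone, and ADR1 did not in the first section.

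Of 6 factors of vacuole import and degradation, an alternative route for these enzymes, VID22 fell, with a change of -1.96 ± 0.36, and VID27 rose, by 1.23 ± 0.36. The VID27 call was lost without the 0, 1, 10, 15, 30 or 40 µg/ml array, at 1.00 to 1.25, and also with equal spread, after quantile normalization, in the first section, on log2(dose + 1), with days as a term and on the 4-day or 2-day arrays alone. The VID22 call was lost with equal spread (-1.32), on log2(dose + 1) (-1.73) and on the 2-day arrays alone (-2.91). TCO89, a subunit of TORC1, was at 0.51, -0.66, -2.07, -1.39, -0.60, -0.49, -2.24, -3.20, -0.95 and -1.25 from 0 to 40 µg/ml. Its 2 spots did not agree. The first section was at -3.26, -5.66 and -6.77 with 5, 25 and 30 µg/ml, and had no value at the 2 highest doses. Its value at 30 µg/ml was the lowest ratio of 0.01 and so an upper limit. The second section was at -0.88, 1.17 and 0.37 with 5, 25 and 30 µg/ml. The fitted change of -1.22 ± 0.83 was -7.05 in the first section and -0.11 in the second. CPR1, cyclophilin A, was at -1.77 ± 0.77, with -0.13 in the first section and -3.40 in the second. The other 2, the COPI coat subunit SEC28 and the Hsp70 gene SSA2, ranged from -1.43 to 0.14. None of these 4 passed. CPR1 did so without the no-drug array, at -2.78, on which it stood at -1.58. In all, 1 of the 24 was lower and 4 were higher, with a median of 0.30, where 9.13% of all strains were lower and 10.3% higher, so the counts are near those shares.

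**Figure D3:**
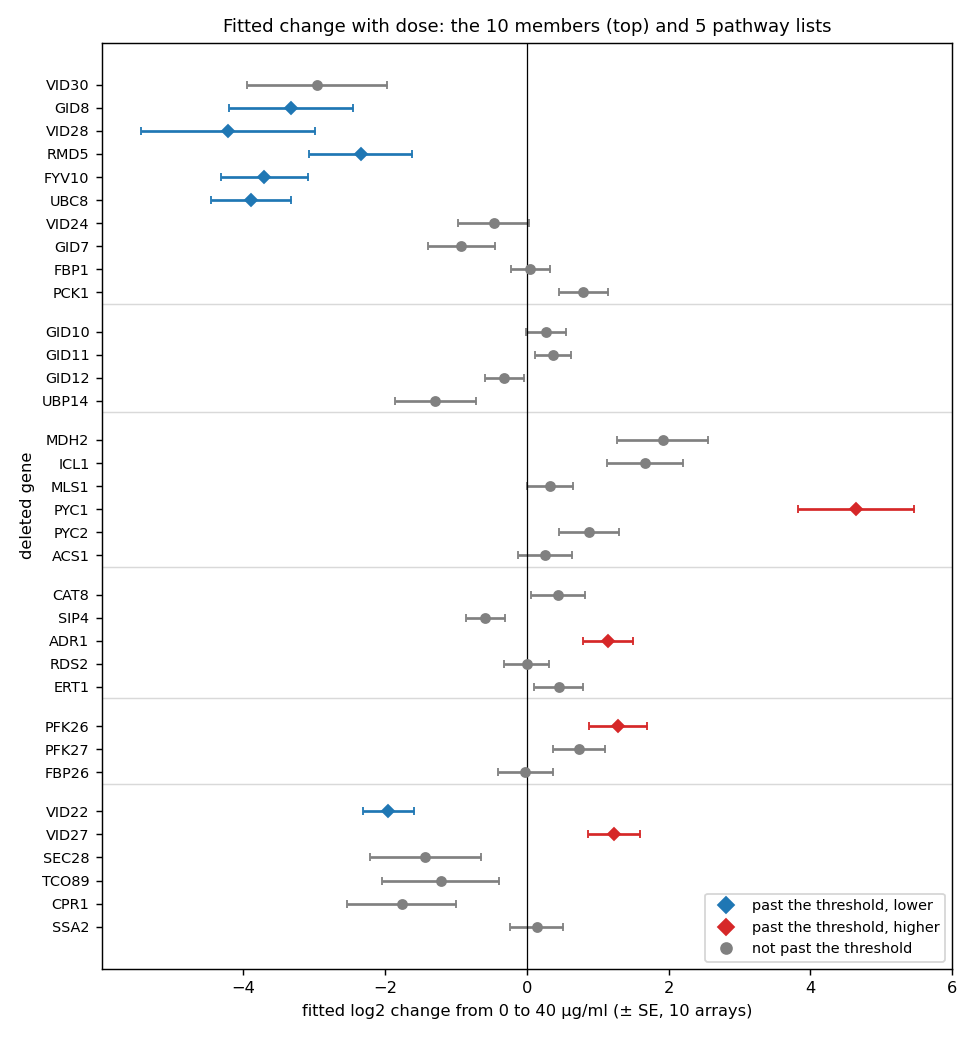
Fitted log2 change from 0 to 40 µg/ml ± SE over 10 arrays (horizontal axis) for each deleted gene (vertical axis), with the 10 strains at the top and the 5 lists below. Diamonds mark a limma adjusted p below 0.05, and the 6 ligase strains between -4.22 and -2.35 lie below every gene of the lists.

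The strains with the most similar courses were found by Pearson correlation with the mean of the 8 ligase strains over the 10 arrays, as a measure of likeness with no test. Among the 10 nearest of 5312 other strains, 6 lacked a gene with a PEX symbol (peroxisome biogenesis), a grouping made after the names were seen. Of 27 PEX strains measured, 13 reached 0.9, and the 27 ranged from -0.79 to 1.00 with a median of 0.84. The 6 were PEX17 at 0.997 and PEX13 at 0.976, of the docking complex, PEX5 at 0.977, the import receptor, PEX6 at 0.981, an ATPase that recycles the receptor, PEX8 at 0.981 and PEX3 at 0.979. The others were SSN2 at 0.986, a Mediator subunit, ELF1 at 0.982, an elongation factor, NUP170 at 0.978, a nuclear pore protein, and HMF1 at 0.978. At 5, 20 and 40 µg/ml PEX17 was at -3.13, -0.40 and -5.22, and PEX8 at -3.42, 0.30 and -5.51. Against the mean of the other 7 ligase strains, the 6 strains with the deep dip correlated at 0.87 to 0.98, GID7 at 0.53 and VID24 at 0.19. FBP1 and PCK1 were at 0.28 and -0.51 against the 8. In all, 166 other strains, 3.12%, reached 0.9.

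**Figure D4:**
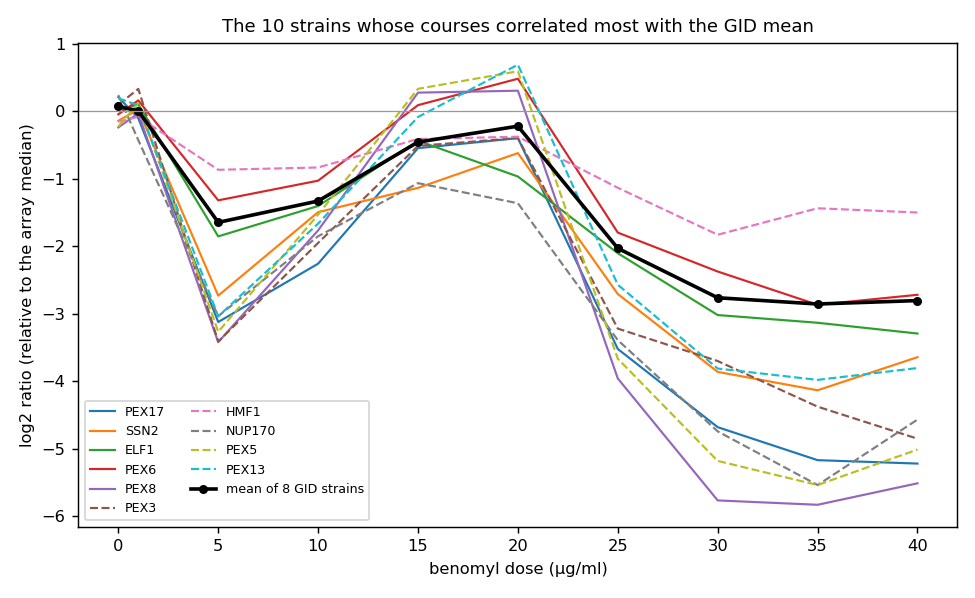
Log2 ratio relative to the array median (vertical axis) against benomyl dose in µg/ml (horizontal axis) for the mean of the 8 GID ligase strains (thick line) and the 10 other strains whose courses correlated with it most. All 10 lie below the median at 5 and 10 µg/ml and again from 25 µg/ml, and HMF1 has the shallowest course, at -1.50 at 40 µg/ml.

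Deleting a gene can also touch the next gene on the chromosome, so the nearest strain on either side of each of the 10 genes was read in the same way, a check added with the values already in view. Of the 12 neighbours of the 6 genes with the deep dip, 1 was past the threshold in the lower direction and 1 in the higher, against 9.13% and 10.3% of all strains, and their median change was 0.029. At least 2-fold below on all 4 arrays from 25 to 40 µg/ml were 3 of the 12, OST5, RPL2B and VAC8, against 5.88% of all strains. RPL2B and VAC8 were also at least 2-fold below on both the 5 and 10 µg/ml arrays. Both dips together held for 3.61% of all strains. OST5, of the oligosaccharyltransferase and next to VID30, was at -1.53 at 40 µg/ml, and its course correlated with that of VID30 at 0.70. The neighbour past the threshold in the lower direction was RPL2B, a gene of the large ribosomal subunit next to VID28, at -5.76 ± 0.55. It was at -1.95 with 5 µg/ml. On the 40 µg/ml array both of its spots were at the lowest ratio of 0.01, so -6.81 is an upper limit there, and the fitted change rests on it. Its course correlated with that of VID28 at 0.81. The higher one was CHL4, a kinetochore gene next to RMD5, at 2.01 ± 0.64. VAC8, a vacuole gene next to UBC8, was at -3.79 and -1.33 on the 5 and 40 µg/ml arrays. Whether a neighbour has a part in the values of VID30, VID28, UBC8 or any other of the 10 strains was not tested. Both neighbours of GID8 and both of FYV10 were not past the threshold, with changes between -0.60 and 0.21.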

How the data were processed

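The value table deposited by the authors holds a log2 ratio for each spot. The scanner was a GenePix 4000B and the image software GenePix 5.1, per the labels. The numerator and any normalization were not stated in the sources used. Spots were named by GEO's platform annotation, with symbols updated through RefSeq gene numbers (R64) for 5321 of 5325 strains. The 18 values coded as a ratio of 1000000 were set to missing. Each array was centred on the median of its 18794 named spots, and spots were averaged per strain. Strains needed values on at least 8 arrays. Lines and group differences were fitted over all strains with limma 3.58.1 in R 4.3.3 (lmFit, eBayes), checked on simulated data, with Benjamini-Hochberg adjustment and 0.05 as threshold. A ratio counted as a whole hundredth within 0.01 of a hundredth. The genes named are the members, the 24 genes of 5 lists and the 10 strains most like the ligase mean, plus neighbours and counted exceptions. Members, lists and rules were chosen with earlier results of these data known. P-values measure the scatter of single arrays about the line, or about the mean of a group of unlike doses. This scatter includes any curved course and is not the error between repeated arrays. Alternatives changed centring, scaling, spot summary, section, dose scale, days and arrays. No coordinates are given, since no build is named.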

Additional observations from a re-analysis of the deposited data

Results flagged for a closer look

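Among the 5 arrays of 4 days, VID30 at 20 µg/ml, with 0.24, stood far from the other 4 arrays, which lay between -3.72 and -3.14. VID24 at 40 µg/ml, with -1.36, stood far from the others of 4 days, which lay between 0.12 and 0.27. Dixon's outlier rule flagged these 2 of 20 sets of arrays, where chance gives about 1 in 20 among repeated arrays. Here the arrays of a set differ in dose and the strains were chosen by these values, so that rate does not apply. The other strains with the deep dip were also within 2-fold of the median at 20 µg/ml.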

How the results depend on the processing

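The count of ligase strains at least 2-fold below on all 4 arrays from 25 to 40 µg/ml stayed within 1.5 times under all alternatives run. That for 5 and 10 µg/ml went from 5 to 1 with a 4-fold limit and to 6 in the second section. Limma fits moved more. In the order equal spread, quantile normalization, log2(dose + 1), days added as a term, 4-day arrays and 2-day arrays, the dose fit put 0, 2, 2, 2, 1 and 0 ligase strains past the threshold (5 as reported), with 2 in the second section. All strains lower numbered 486, and 24, 133, 260, 182, 157 and 0 in that order. All strains higher numbered 547, and 41, 107, 232, 157, 93 and 0, with 851 on uncentred values. The ligase median was -3.14, and -1.63 with equal spread and -1.85 after quantile normalization. With days and on the 4-day and 2-day arrays it was -5.50, -5.41 and -6.10. The last 2 were scaled from fewer doses to 0 to 40 µg/ml. With 1 array left out, the dose fit gave 2 to 6 ligase strains, a median of -3.76 to -2.87, and 308 to 545 lower and 314 to 614 higher strains. For 4-day against 2-day arrays the 14 lower and 46 higher strains became 2 and 20 with equal spread, 7 and 17 after quantile normalization, 3 and 21 in the first section and 1 and 11 in the second. With 1 array left out they ranged from 0 to 216 and from 4 to 279, the ligase strains past the threshold from 0 to 3, and the ligase median from -2.13 to -1.14, beside -1.49 as reported and -0.87 with equal spread.

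Signs turned mainly in fitted changes near 0. FBP1 (0.05) was at -0.28 in the first section, -0.078 on log2(dose + 1), -0.57 with days, -0.25 on the 4-day arrays and -1.99 on the 2-day arrays, and at -0.037 to 0.16 with 1 array left out. VID24 (-0.47) was at 0.19 in the second section and at -0.70 to 0.26 with 1 array left out. Its difference between 4-day and 2-day arrays (0.01) was -0.22 in the first section and -0.25 to 0.32 with 1 array left out. On the 2-day arrays alone PCK1 was at -0.38, ICL1 at -0.79, ADR1 at -2.32, VID27 at -0.13, CPR1 at 5.02, MLS1 at -1.54 and SEC28 at 6.56, opposite to the reported sign. GID12 was at 0.27 with equal spread, 0.25 after quantile normalization, 0.22 in the second section and 0.31 on the 2-day arrays, and GID10 at -0.18 in the second section. RDS2 (-0.0047) was at 0.24 uncentred, 0.015 in the second section, 0.080 on log2(dose + 1), and 0.72, 0.73 and 0.97 with days and on the 4-day and 2-day arrays. FBP26 (-0.021) was at 0.22 uncentred, 0.13 in the first section, 0.072 on log2(dose + 1), and 0.42, 0.23 and 1.36 with days and on the 4-day and 2-day arrays. PYC2 was at -0.999 and SSA2 at -0.23 on the 4-day arrays, SSA2 at -0.078 in the first section, ERT1 at -0.023 in the second, and ACS1 at -0.12 with equal spread and -0.18 after quantile normalization. With 1 array left out ACS1 was at -0.14 to 0.55, FBP26 at -0.53 to 0.45, RDS2 at -0.32 to 0.20 and SSA2 at -0.11 to 0.50. The cause was not tested. No paired analysis was possible because each dose had 1 array. The number of arrays limits precision, and without intensities signal over background is unknown.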
